A study of Mus musculus with 5 samples.

Results

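The genes described here encode the machinery that carries proteins into mitochondria, measured by RNA-seq in tibialis anterior (TA) muscle of mice. They are the genes whose name starts with Timm or Tomm, together with Pam16, Dnajc19, Hspa9, Grpel1, Grpel2, Samm50, Mtx1, Mtx2, Pmpca, Pmpcb, Chchd4, Gfer, Immp1l and Immp2l. This rule on names found 38 of the 17015 genes in the expression table. RNA came from male mice at 8 weeks of age, 3 libraries carrying the label WT control and 2 the label skmNrip1-/-. The skmNrip1-/- mice carry floxed Nrip1 alleles (Nrip1 fl/fl, with loxP sites around the last exon, which holds the whole coding sequence) from a C57BL/6J line crossed to C57BL/6JN mice with Cre recombinase under the myogenin promoter, a driver active in skeletal muscle cells. WT control mice are described as littermates without Cre, and cells of the muscle that never expressed myogenin keep the gene in both groups. Nrip1 encodes RIP140, a nuclear receptor coregulator known to repress genes of mitochondrial oxidative metabolism, and the comparison asks which genes differ in fast-twitch muscle when it is lost. The study's legend gives 3 per group for this comparison. Whether each library is 1 mouse is not stated, so p-values set the group difference against the spread of these 5 libraries within their groups.

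Mitochondria import nearly all of their proteins from the cytosol. The TOM complex of the outer membrane is the common entry gate, the SAM complex inserts barrel-shaped proteins into that membrane, and a disulfide relay traps cysteine-rich proteins in the intermembrane space. Small TIM chaperones escort carrier proteins to the TIM22 complex, while the TIM23 complex and its ATP-driven motor bring proteins with a presequence into the matrix, where peptidases cut the presequence off.

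Levels are given in FPKM (fragments per kilobase of transcript, here with a scaling that gives libraries the same median ratio across genes), a unit per length that lets genes be compared with each other. Single values are listed for WT control replicates 1, 2 and 3, then for replicates 1 and 2 labelled skmNrip1-/-. Nrip1 was at 4.64, 7.69 and 6.55 FPKM in WT control and at 25.3 and 22.5 FPKM in the other group (log2 fold change 1.94, SE 0.21, adjusted p = 0.0261 in limma). The targeted gene was thus higher where it should be deleted, and since the table has 1 value per gene the deleted exon cannot be checked, so the groups are named by their labels throughout. For this mouse line the study presents Nrip1 expression and a RIP140 western blot of gastrocnemius and heart, which are not part of these libraries. The skeletal muscle markers Acta1, Ckm, Myh4, Myh1, Myh2, Tnnt3 and Mylpf summed to 87999, 65626 and 70331 FPKM in WT control. In the libraries labelled skmNrip1-/- they summed to 62590 and 60449 FPKM, below every WT control library. Genes of mitochondrial DNA made up 45.4% to 50.7% of the FPKM sum in WT control and 58.6% to 60.9% in the libraries labelled skmNrip1-/-, and their part in the results was not tested. The number of fragments per library is unknown. In whole muscle, fewer cells of a type and less RNA per cell cannot be told apart.

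No import gene passed the test between the groups. All 38 were detected in every library and had a mean of at least 0.5 FPKM, which was the minimum for testing. Calls required an adjusted p not above 0.05 (limma, Benjamini-Hochberg over 12148 genes) together with a fold change of 1.2 or more. This call was made for 0 import genes in either direction, against 45 of all tested genes higher (0.37%) and 10 lower (0.0823%) in the libraries labelled skmNrip1-/-. With each library rescaled to the same FPKM sum (TPM), the calls over all genes were 29 higher and 59 lower, and again 0 import genes. The smallest adjusted p of an import gene was 0.132 in limma, for Pmpcb. Over the alternatives with more than 1 library in each group, the smallest value of any import gene ranged from 0.0609 to 0.446 in limma. The gene that held it could differ, and 0.0609 was that of Gfer on the TPM scale, where Pmpcb had 0.23.

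Below the call, more import genes lay above 0 than below. The log2 fold change was above 0 for 28 of 38 import genes (49.9% of all genes tested) and its median was 0.10, beside -0.00 over all genes tested, whereas on the TPM scale 5 of 38 were above 0 with a median of -0.20 beside -0.29. Measured from the median of all genes, 28 of 38 import genes were above it on both scales. Rescaling shifts every log2 fold change and this median by nearly the same amount, so the second count adds no separate evidence. An unadjusted p of 0.05 or less was reached by 5 import genes in the higher direction (6.57% of all genes tested) and by 1 in the lower direction (5.33%). These were Pmpcb, Hspa9, Timm21, Timm44 and Tomm70a, and Gfer, respectively. Without replicate 1 labelled skmNrip1-/- the count of higher genes was 1, and without replicate 2 of that group, or without WT control replicate 3, it was 2. The count of lower genes was 3 without WT control replicate 2 and 0 without replicate 2 labelled skmNrip1-/-. On the TPM scale the counts were 0 higher and 8 lower.

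The 2 groups of libraries did not overlap for 12 import genes. In 11 of them both libraries labelled skmNrip1-/- were above all 3 WT control libraries (15.8% of all genes tested), and in Gfer both were below (14.4%). The 11 were Pmpcb, Hspa9, Timm21, Timm44, Tomm70a, Timm8a1, Chchd4, Grpel1, Timmdc1, Tomm40 and Timm29, of which Pmpcb, Hspa9, Timm21 and Tomm70a had a log2 fold change above 0 on the TPM scale too. With 3 libraries against 2 there are 10 ways to split them, so an exact permutation test of a single gene cannot go below a one-sided p of 0.1. The summed level of the 38 genes was 2006, 1773 and 1906 FPKM in WT control and 2131 and 1945 FPKM in the libraries labelled skmNrip1-/- (1895 ± 117, SD, n = 3, and 2038 ± 131, n = 2). These sums overlapped between the groups, as WT control replicate 1 lay above replicate 2 labelled skmNrip1-/-. WT control replicate 2 was the lowest library for 21 of the 38 genes (17.1% of all genes tested), and replicate 1 labelled skmNrip1-/- was the highest for 16 (18.4%). Relative to the WT control mean, the median import gene was at 0.10, -0.10 and -0.00 on the log2 scale in WT control and at 0.17 and 0.05 in the libraries labelled skmNrip1-/-. The plot of import genes by library shows this overlap.

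**Figure D1:**
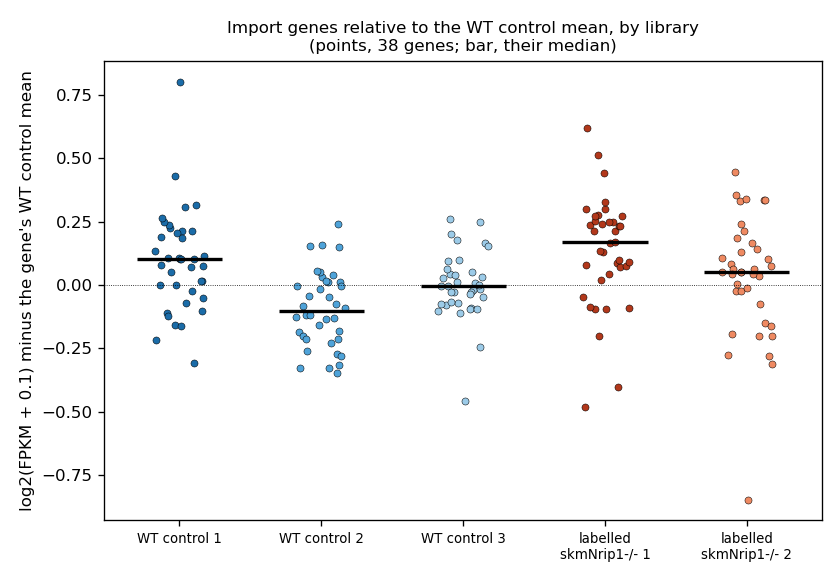
Each point is 1 of the 38 import genes, placed at its log2(FPKM + 0.1) in a library minus its mean over the WT control libraries, with the median as a bar and 1 column per library. The medians were 0.10, -0.10 and -0.00 in WT control and 0.17 and 0.05 in the libraries labelled skmNrip1-/-, so the groups overlap, and on the TPM scale the median difference has the opposite sign (-0.20, beside -0.29 for all genes).

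The import genes spanned a wide range of levels. Timm23, the channel of the presequence translocase, was the most abundant, at 308, 264 and 288 FPKM in WT control and 321 and 282 FPKM in the libraries labelled skmNrip1-/-. Grpel2, a nucleotide exchange factor of the matrix motor chaperone, was the least abundant, at 4.19, 4.17 and 4.91 FPKM and 5.34 and 4.76 FPKM. Both genes overlapped between the groups, and the log2 fold change of Timm23 was 0.07 (SE 0.12, 95% interval of the fold 0.858 to 1.29). The plot of FPKM by gene shows how narrow the spread between libraries was beside the range between genes.

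**Figure D2:**
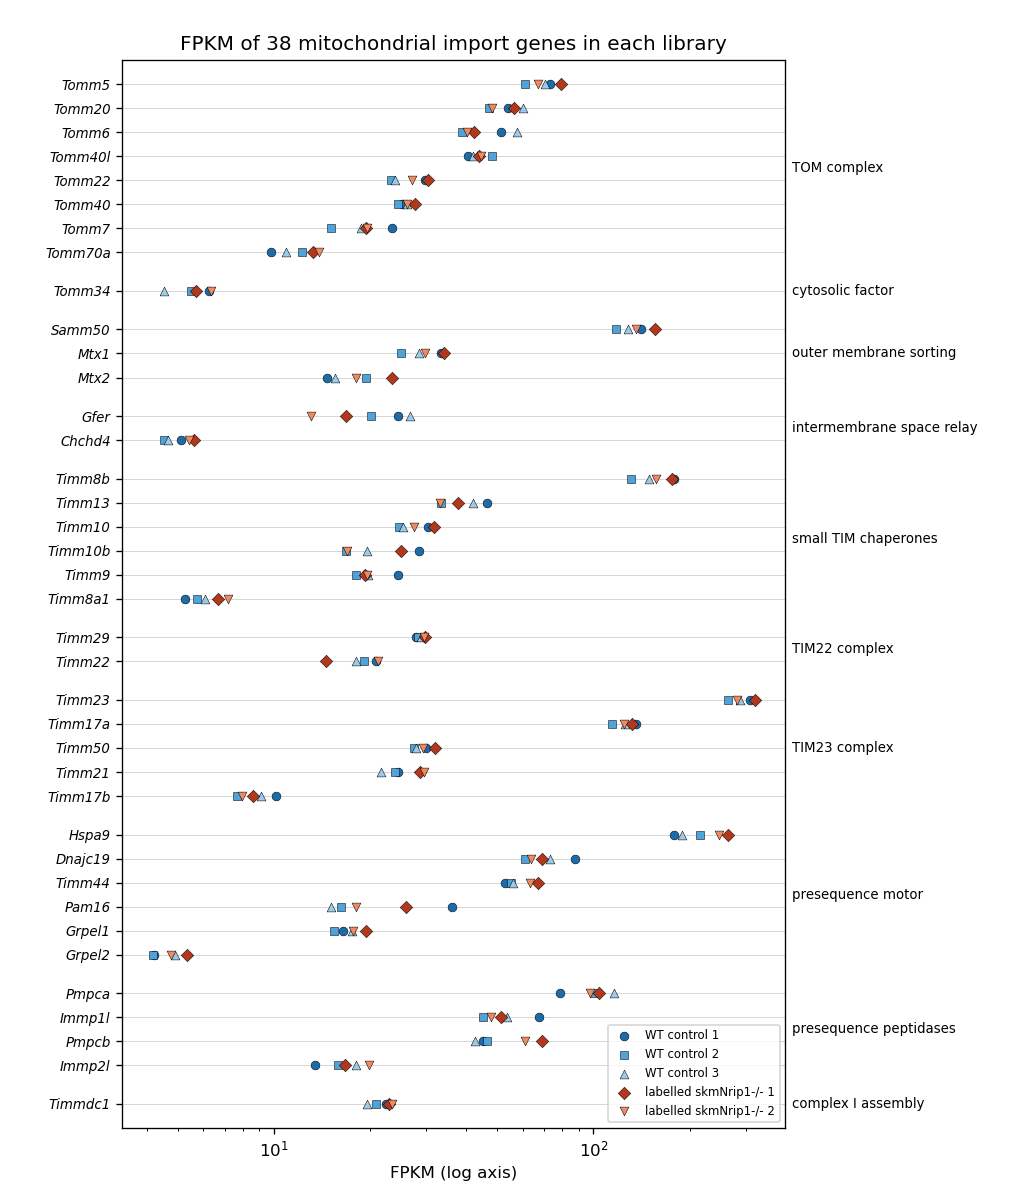
FPKM (log axis) of each of the 38 import genes, grouped by role, with 1 point per library for the 3 WT control and the 2 libraries labelled skmNrip1-/-. Timm23 lies highest (264 to 321 FPKM) and Grpel2 lowest (4.17 to 5.34 FPKM), and the points of the 2 groups are separate for 12 genes, with Gfer the 1 gene of them where WT control is higher.

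At the outer membrane, the TOM complex as a whole differed between the groups by less than its spread. Its 8 genes summed to 296 ± 22.4 FPKM (SD, n = 3) in WT control and 299 ± 18.3 FPKM (n = 2) in the libraries labelled skmNrip1-/-, with a median log2 fold change of 0.07. Tomm70a, a receptor for carrier precursors and their cytosolic chaperones (chr16:57121703-57156705, plus strand, GRCm38), was at 9.81, 12.2 and 10.9 FPKM in WT control and 13.2 and 13.8 FPKM in the other group. It was higher in both libraries labelled skmNrip1-/- than in any WT control library, and its log2 fold change was 0.30 (SE 0.13, adjusted p = 0.42 in limma), which became 0.0071 on the TPM scale. Tomm20 and Tomm22, the presequence receptors, had log2 fold changes of -0.04 and 0.17, and both overlapped between the groups. Tomm40, the pore, was at 25.2, 24.5 and 26.0 FPKM and then 27.6 and 26.2 FPKM, a separation without overlap but with a log2 fold change of 0.09. The small subunits Tomm5, Tomm6 and Tomm7 had log2 fold changes of 0.09, -0.24 and 0.05, and all 3 overlapped.

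Sorting within the outer membrane showed overlapping groups for its 3 genes. Samm50, the core of the SAM complex, was at 141, 118 and 129 FPKM in WT control and 156 and 136 FPKM in the libraries labelled skmNrip1-/- (log2 fold change 0.18, adjusted p = 0.654 in limma). Its partners Mtx1 and Mtx2, the metaxins, had log2 fold changes of 0.14 and 0.33 (adjusted p = 0.779 and 0.525). For Mtx2 the 95% interval of the fold was 0.945 to 1.66. Tomm34, a cytosolic co-chaperone of precursors, had a log2 fold change of 0.16 and also overlapped.

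The disulfide relay of the intermembrane space held the 1 import gene that was lower by the unadjusted p. Gfer, the sulfhydryl oxidase that re-oxidizes the relay (chr17:24693187-24696156, minus strand), was at 24.5, 20.1 and 26.7 FPKM in WT control and 16.9 and 13.1 FPKM in the libraries labelled skmNrip1-/-. Both of the latter lay below every WT control library, and the test gave a log2 fold change of -0.66 (SE 0.17, adjusted p = 0.223 in limma), a fold of 0.631 with a 95% interval of 0.478 to 0.834. On the TPM scale its log2 fold change was -0.96 (adjusted p = 0.0609), and without replicate 2 labelled skmNrip1-/- it was -0.48 with an unadjusted p of 0.0576 in limma. Chchd4, the import receptor that Gfer re-oxidizes, was at 5.12, 4.51 and 4.67 FPKM and then 5.62 and 5.43 FPKM. Its values were higher in both libraries labelled skmNrip1-/-, by a log2 fold change of 0.21 (SE 0.12, adjusted p = 0.56), which was -0.082 on the TPM scale.

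Among the small TIM chaperones, 3 of 6 genes lay above 0 and the median log2 fold change was 0.05. Timm8a1 was at 5.25, 5.74 and 6.10 FPKM in WT control and 6.69 and 7.18 FPKM in the libraries labelled skmNrip1-/-, separate between the groups (log2 fold change 0.28, adjusted p = 0.434 in limma). Timm8b, Timm9, Timm10, Timm10b and Timm13 overlapped, from -0.19 for Timm13 to 0.15 for Timm10. The TIM22 complex, which inserts carriers into the inner membrane, had a median of -0.03. Timm22, its channel, was at 20.8, 19.1 and 18.1 FPKM in WT control and 14.6 and 21.1 FPKM in the other group, so that 1 library labelled skmNrip1-/- was the lowest and the other the highest. Timm29, a further subunit of that complex, ranged from 27.9 to 28.9 FPKM in WT control and from 29.5 to 29.8 FPKM in the other group (log2 fold change 0.07).

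In the TIM23 complex, Timm21 stood apart from its partners by its unadjusted p. Timm21, which links TIM23 to the TOM complex and the respiratory chain (chr18:84946191-84951524, minus strand), was at 24.5, 23.9 and 21.6 FPKM in WT control and 28.7 and 29.5 FPKM in the libraries labelled skmNrip1-/-. The groups were separate, with a log2 fold change of 0.32 (SE 0.11, adjusted p = 0.314 in limma), which was 0.021 on the TPM scale. Timm50, the presequence receptor on the intermembrane space side, and the channel subunits Timm17a and Timm17b had log2 fold changes of 0.11, 0.03 and -0.11, and all overlapped. Timmdc1, which shares the family name but helps to assemble respiratory complex I, was separate and higher at 0.15 (adjusted p = 0.655).

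In the presequence motor, 2 of 6 genes (Hspa9 and Timm44) had an unadjusted p of 0.05 or less in the higher direction (6.57% of all genes tested), and 0 of 6 on the TPM scale. Its summed level was 366 ± 9.77 FPKM (SD, n = 3) in WT control and 433 ± 24.2 FPKM (n = 2) in the libraries labelled skmNrip1-/-, a ratio of 1.18, with most of the difference from Hspa9. The same ratio for the FPKM sum of all genes tested, those of mitochondrial DNA included, was 1.23. Hspa9, the matrix Hsp70 that pulls precursors in (chr18:34937414-34954357, minus strand), was at 178, 216 and 189 FPKM in WT control and 263 and 248 FPKM in the other group. Both libraries labelled skmNrip1-/- were above all WT control libraries, with a log2 fold change of 0.40 (SE 0.12, adjusted p = 0.284 in limma), and 0.10 on the TPM scale. Timm44, which tethers Hspa9 to the channel (chr8:4259731-4275913, minus strand), was at 52.8, 55.1 and 56.1 FPKM and then 67.3 and 63.4 FPKM. It too was separate, with a log2 fold change of 0.26 (SE 0.10, adjusted p = 0.375), and -0.043 on the TPM scale. Grpel1, the main exchange factor of Hspa9, was separate and higher at 0.17 (adjusted p = 0.628). Dnajc19 and Pam16, the J protein and the J-like protein that regulate the motor, had log2 fold changes of -0.14 and 0.07, and Pam16 varied most between libraries of 1 group (36.1, 16.2 and 15.0 FPKM in WT control), with a 95% interval of its fold from 0.552 to 1.98.

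The presequence peptidases held the import gene with the smallest p. Pmpcb, the catalytic subunit of the matrix processing peptidase (chr5:21737141-21757152, plus strand), was at 45.2, 46.5 and 42.5 FPKM in WT control and 68.8 and 60.9 FPKM in the libraries labelled skmNrip1-/-. The groups did not overlap, at 44.7 ± 2.05 FPKM (SD, n = 3) and 64.9 ± 5.55 FPKM (n = 2), with a fold of 1.45 and a 95% interval of 1.21 to 1.73. Its log2 fold change was 0.53 (SE 0.11, adjusted p = 0.132 in limma), and 0.23 on the TPM scale. Pmpca, the substrate-binding subunit of the same enzyme, was at 78.4, 101 and 116 FPKM in WT control and 104 and 97.4 FPKM in the other group. It overlapped, its log2 fold change was 0.05, and the 95% interval of its fold ran from 0.778 to 1.38. Immp1l and Immp2l, the catalytic subunits of the inner membrane peptidase, had log2 fold changes of -0.15 and 0.21 and overlapped as well. The plot of log2 fold changes sets all 38 genes side by side.

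**Figure D3:**
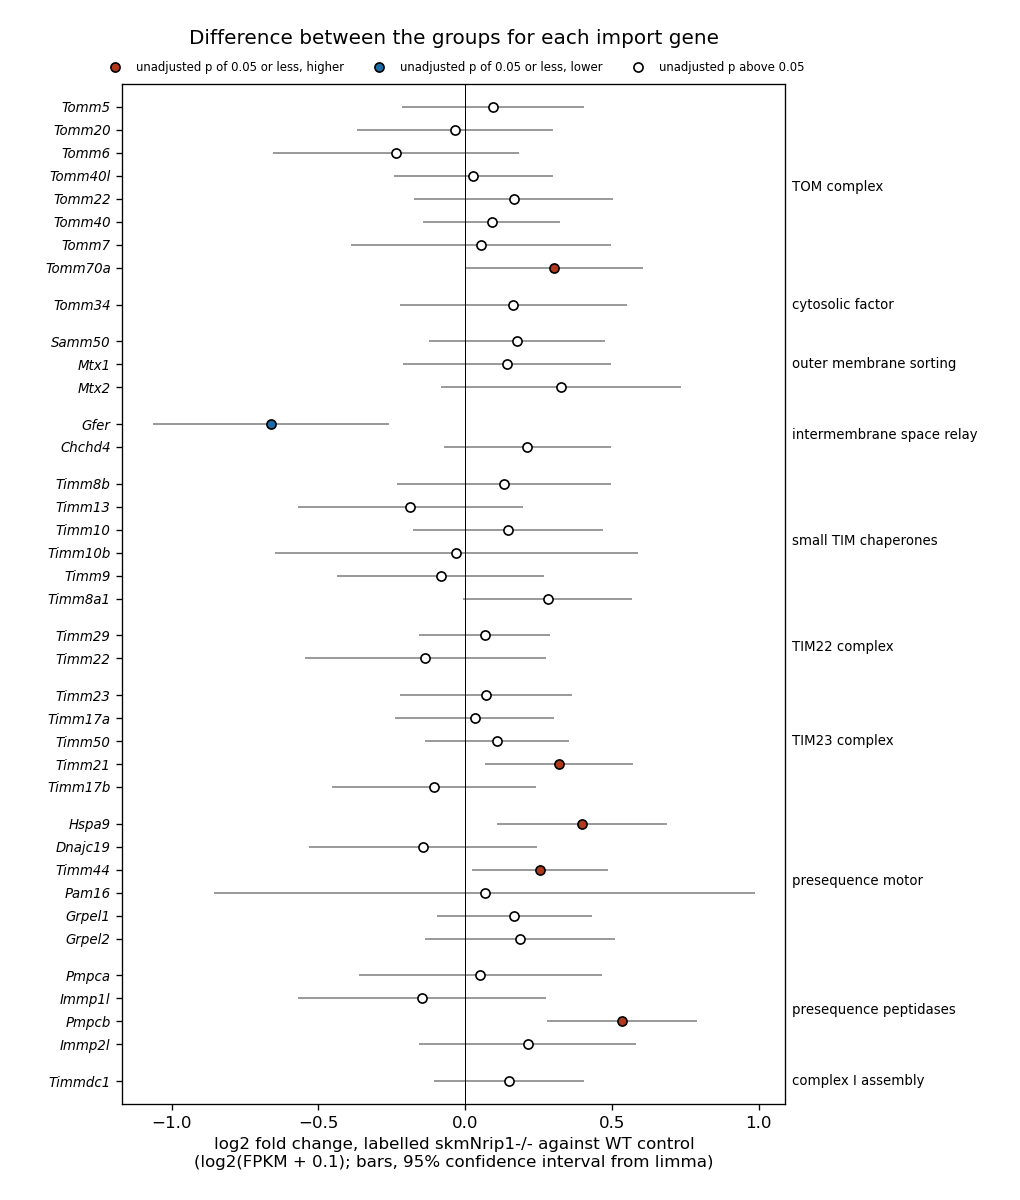
Log2 fold change of each import gene, comparing the libraries labelled skmNrip1-/- to WT control on log2(FPKM + 0.1), with its 95% confidence interval from limma and genes grouped by role. Coloured points mark the 5 higher genes and 1 lower gene with an unadjusted p of 0.05 or less, none of which passed the adjusted test. On the TPM scale 23 of the 38 genes change sign, and the median of all genes tested moves to -0.29.

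Shares within pairs of genes do not depend on how libraries are scaled. In 10 pairs of paralogs or of partners in 1 complex, the share of the first gene in the summed FPKM of the pair was separate between the groups in 5 (3 higher and 2 lower in the libraries labelled skmNrip1-/-) and overlapped in 5. For single genes, 15.8% of all genes tested were separate in the higher and 14.4% in the lower direction, and no such share was computed over other pairs. The shares are given as a description and were not tested, and a share moves whenever either gene does. Among the paralogs, Timm17a held nearly the whole of the Timm17 pair, at 93.1%, 93.7% and 93.3% in WT control and 93.9% and 94.0% in the libraries labelled skmNrip1-/-. The separation of this pair was 0.58 percentage points. Grpel2 held 20.3% to 21.9% of the Grpel pair in WT control and 21.2% to 21.6% in the other group, which overlapped. Tomm40l, the paralog of the pore gene, held 61.6% to 66.3% and then 61.4% to 63.0% of its pair with Tomm40, and Timm8a1 held 2.86% to 4.21% and then 3.67% to 4.36% of its pair with Timm8b. In both groups the more abundant paralogs were Timm17a, Grpel1, Tomm40l and Timm8b, although Tomm40l shares exonic bases with another gene.

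Partner genes showed wider differences in share when counted in percentage points. This measure leaves little room where 1 gene holds nearly the whole pair, as in the Timm17 and Timm8 pairs. Chchd4 made up 17.3%, 18.3% and 14.9% of the Chchd4 and Gfer pair in WT control and 25.0% and 29.3% in the libraries labelled skmNrip1-/-. This was the widest difference of the 10 pairs, from 16.8% ± 1.78 (SD, n = 3) to 27.2% ± 3.06 (n = 2), and it stayed between 8.17 and 12.5 percentage points when each library was left out. Pmpca made up 63.4%, 68.4% and 73.2% of the processing peptidase pair in WT control and 60.2% and 61.5% in the other group, a separation in the lower direction, with a difference of -7.48 percentage points. Timm8b made up 79.4%, 79.7% and 78.0% of its pair with Timm13 in WT control and 82.4% and 82.6% in the other group. Timm9 made up 44.6%, 42.4% and 43.6% of its pair with Timm10, its partner in the carrier chaperone, and then 37.8% and 41.5%. The difference for Timm9 was -3.88 percentage points, and -2.04 without replicate 1 labelled skmNrip1-/-. Mtx1 in the metaxin pair and Immp2l in the inner membrane peptidase pair overlapped, at 56.4% to 69.6% and 16.6% to 26.1% in WT control and at 59.3% to 62.1% and 24.6% to 29.4% in the other group. The plot of pair shares shows the 5 separate and the 5 overlapping pairs.

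**Figure D4:**
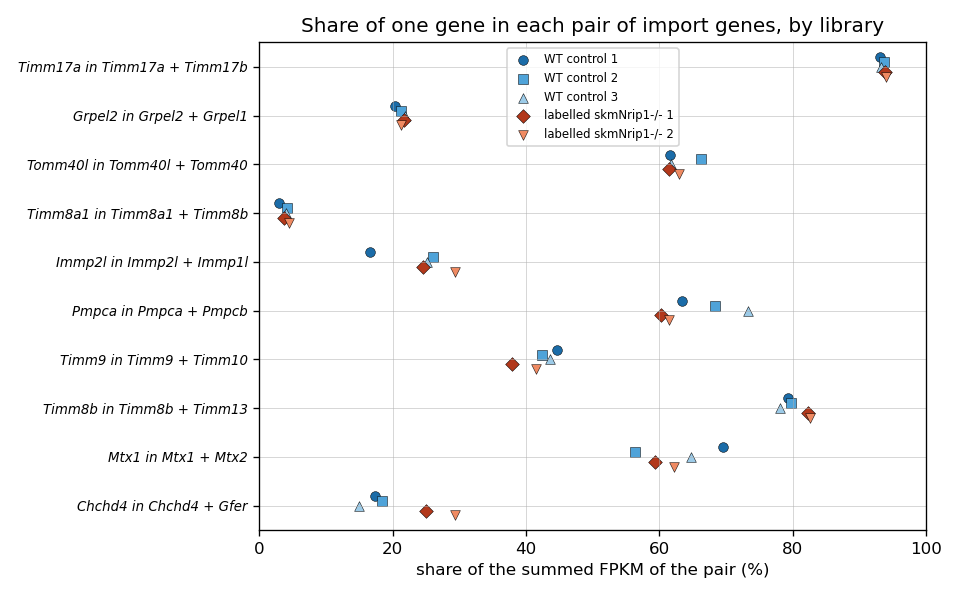
Share (%) of the first gene in the summed FPKM of each of 10 pairs, with 1 point per library for the 3 WT control and the 2 libraries labelled skmNrip1-/-. The points of the Chchd4 and Gfer pair lie farthest apart (14.9% to 18.3% against 25.0% and 29.3%), while those of the Grpel pair lie on each other (20.3% to 21.9% in WT control).

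Promoters of the import genes were searched for the letters of factors known to act on nuclear genes for mitochondrial proteins. RefSeq windows of 250 bases before to 50 bases after the start (GRCm38.p6) were at hand for 33 of the 38 genes (35 promoters), and Grpel2, Hspa9, Timm21, Tomm40l and Tomm7 had no entry. Both strands were searched for 6 motifs, and no matches in these promoters overlapped each other. The GABPA motif CCGGAAGT was in 22.9% of import gene promoters, in 3.89% of all promoters and in 7.94% of promoters of the tested genes. It was found in Mtx2, Pmpcb, Timm10, Timm10b, Timm23, Timm29, Timmdc1 and Tomm70a. The NRF1 motif GCGCANGCG was in 14.3%, 6.25% and 13.3% of the same groups (Chchd4, Pam16, Timm13, Timm8b and Tomm20), and the YY1 motif AAGATGGCG in 8.57%, 1.40% and 3.01% (Immp1l, Mtx1 and Timm50). The E-box CACGTG was in 11.4%, 7.15% and 9.97% (Timm10, Timm8a1, Timm9 and Tomm20), and the CREB motif TGACGTCA in 0 of 35 import gene promoters, 1.79% and 2.94%. The extended motif TNAAGGTCA of the estrogen-related receptors, which RIP140 is known to bind, was in 2.86%, 1.28% and 0.787%, with 1 import gene (Timm8b). A match is a description of letters and not a bound site. Of the import genes with an unadjusted p of 0.05 or less, Pmpcb and Tomm70a had the GABPA match. Timm44 and Gfer had none, and the remaining genes with this match had an unadjusted p above 0.05. The sequences below show the GABPA match in Pmpcb, in Tomm70a and in Timm23, the most abundant gene, and the receptor motif of Timm8b. Capitals mark the motif, each is written 5′ to 3′ on the strand of its gene, and positions count from the start base as 0. They lie at chr5:21737133-21737162 (plus strand, motif from -16), chr16:57121623-57121652 (plus, -80), chr14:32201921-32201950 (minus, -48, motif reversed) and chr9:50603795-50603824 (plus, -96).
Pmpcb: ggagtcatgacCCGGAAGTacatctccact
Tomm70a: gccttctgaccCCGGAAGTggttctcccct
Timm23: tcgcgcttcccACTTCCGGgccgcacacag
Timm8b: tttcgagggcTCAAGGTCActctacaaccc

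Other genes that act with the import machinery were taken as 5 lists, and 0 of their 40 tested genes were called. These lists were chosen with earlier results of these data known, so their counts are a description. Of these, 33 had a log2 fold change above 0 (49.9% of all genes tested), and 8 had an unadjusted p of 0.05 or less in the higher direction (6.57%) and 0 in the lower (5.33%). The groups were separate and higher for 18 (15.8%), and separate and lower for 1 (14.4%), which was Stip1, a co-chaperone of Hsp70 and Hsp90. The median was 0.16. Matrix folding factors, which take over imported proteins, had 5 of 5 above 0 with a median of 0.35. Hspd1, the matrix chaperonin, was the highest of them at 100, 127 and 110.0 FPKM in WT control and 155 and 142 FPKM in the libraries labelled skmNrip1-/- (log2 fold change 0.40, adjusted p = 0.307 in limma), and Hscb, an iron-sulfur co-chaperone, the lowest at 0.07. Of the MICOS complex, which shapes cristae and holds contact with SAM, 8 of 8 tested genes were above 0 with a median of 0.22, from 0.27 for Immt (adjusted p = 0.406) to 0.01 for Chchd6. Mitochondrial proteases had 9 of 11 above 0 with a median of 0.15, from 0.38 for Afg3l2, a subunit of the matrix AAA protease (adjusted p = 0.334), to -0.13 for its partner Spg7.

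The other translocase and insertase subunits had 9 of 10 above 0 with a median of 0.14, from 0.37 for Dnajc15, a J protein of the inner membrane (adjusted p = 0.408 in limma), to -0.27 for Romo1 (adjusted p = 0.605). The cytosolic chaperones, which keep precursors unfolded, had 2 of 6 above 0 and a median of -0.05. Hspa8, the constitutive Hsp70, was the highest at 0.36 (adjusted p = 0.344) and Dnaja1, one of its J proteins, the lowest at -0.17. All these values are on the deposited scale, where the median of all genes was -0.00, whereas on the TPM scale it was -0.29.

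Other nuclear gene families for mitochondria had medians close to that of the import genes. The median log2 fold change was 0.08 over 79 mitochondrial ribosomal proteins, 0.09 over 39 complex I subunits and 0.08 over 39 mitochondrial carriers of the SLC25 family, against 0.10 for the import genes. The share of genes above 0 was 68.4%, 82.1% and 66.7%, against 73.7%. An unadjusted p of 0.05 or less in the higher direction was reached by 12, 3 and 9 genes of the 3 families (15.2%, 7.69% and 23.1% of their tested genes, against 6.57% of all), and in the lower direction by 1, 0 and 1. In each family 0 genes were called.

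Some properties of the libraries moved with these values, and their part was not tested. Of 5 blood markers, 4 (Hba-a1, Hba-a2, Hbb-bs and Hbb-bt) were separate and higher in the libraries labelled skmNrip1-/- (15.8% of all genes tested), and their summed level with Alas2 was 511 to 764 FPKM in WT control and 827 to 996 FPKM in the other group. Of the 7 skeletal muscle markers, 3 (Acta1, Ckm and Mylpf) were separate and lower (14.4%). Of 6 slow fiber markers, Myl2 was separate and higher (log2 fold change 3.46, adjusted p = 0.127 in limma) and Myl3 separate and lower (-1.24, adjusted p = 0.359), and the other 4 overlapped. In these 3 lists 0 markers were called. Short transcripts stood out in WT control replicate 1, which was the highest library for 41.5% of tested genes with a longest transcript of at most 2501 nt and for 20.2% of longer ones. Of the import genes it was the highest for 7 of the 19 shorter ones and 3 of the 19 longer ones, and their median log2 fold changes were 0.09 and 0.17. The medians over all tested genes with the same split were -0.04 for the shorter and 0.01 for the longer ones.

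Shared exons limit some of the values. In the annotation, 76.0% of the exonic bases of Tomm6 are shared with Gm21981 on the same strand, and 64.3% of those of Tomm40l with Nr1i3 on the opposite strand. Further shares on the opposite strand were 21.2% for Mtx1 with Gm43737, 20.4% for Pmpca with Inpp5e, 19.4% for Tomm6 with Tomm6os, 18.7% for Pam16 with Glis2 and 15.6% for Timm8b with Nkapd1, and the remaining overlaps covered at most 11.6%. Whether strand was used in quantification is not stated, so reads of these partners cannot be told apart from those of the import genes.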

How the data were processed

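RNA-seq libraries of TA muscle (3 WT control, 2 labelled skmNrip1-/-) were grouped by their labels. The authors quantified reads with Salmon 1.10.2 on mm10, used tximport to obtain gene values, and deposited FPKM. How FPKM were computed, the annotation release and strand use are not given in the sources used here. The authors' deposited log2 fold changes and adjusted p-values from DESeq2 1.44.0 (2 columns) were not used. By their values, the deposited FPKM carry a median-of-ratios scaling between libraries.

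Differences were fitted with limma 3.58.1 in R 4.3.3 (eBayes with intensity trend, no covariates, all 5 libraries) on log2(FPKM + 0.1) for 12148 genes averaging 0.5 FPKM or more, with p-values from a test of both directions and Benjamini-Hochberg adjustment. For low genes this scale understates fold changes. The fit was tested on simulated data. Positions and exons came from GENCODE M21 (GRCm38), where all 38 gene IDs matched, and promoters from RefSeq GRCm38.p6. Python 3.11.15, pandas 2.3.3, numpy 2.4.6 and matplotlib 3.10.9 were used. Absolute depth is unknown, so no counting intervals are given.

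The genes, lists and pairs were chosen with earlier results of these data known. By rule, values in every library are given for import genes with an unadjusted p of 0.05 or less, the 10 pairs, and the genes with the highest and lowest mean; of each other list the largest and smallest log2 fold changes are named. Further import genes and the markers named beside their lists were chosen after their values were seen. Alternatives covered pseudocount, low-value filter, scaling, variance model, call rule, replicate block and each library left out.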

Additional observations from a re-analysis of the deposited data

How the results depend on the processing

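Under every alternative run, 0 import genes were called in either direction. The 38 log2 fold changes kept their sign with a pseudocount of 1 or 0.01. A minimum of 1 FPKM or none, no intensity trend and robust estimation do not enter a log2 fold change, so no sign could turn there. Median-of-ratios scaling left the log2 fold changes nearly as they were, since the deposited FPKM already carry such a scaling. Rescaling to TPM moved the median of all genes to -0.29 and that of the import genes to -0.20, gave 0 higher and 8 lower import genes at an unadjusted p of 0.05 or less, 29 higher and 59 lower calls over all genes, and turned 23 signs: Chchd4 -0.082, Grpel1 -0.13, Grpel2 -0.10, Immp2l -0.085, Mtx1 -0.16, Pam16 -0.23, Pmpca -0.25, Samm50 -0.12, Timm10 -0.15, Timm17a -0.27, Timm23 -0.23, Timm29 -0.23, Timm44 -0.043, Timm50 -0.19, Timm8a1 -0.014, Timm8b -0.17, Timmdc1 -0.15, Tomm22 -0.13, Tomm34 -0.13, Tomm40 -0.21, Tomm40l -0.27, Tomm5 -0.20 and Tomm7 -0.24. By construction this scaling follows each library's FPKM sum, of which genes of mitochondrial DNA made up 45.4% to 60.9%. Scaling over the other genes gave an import gene median of 0.18 beside 0.07 for all genes, and turned Timm10b to 0.045 and Tomm20 to 0.040. Deviations of same-numbered libraries had correlations of 0.0647 and 0.0952 over genes. For WT control replicate 3 with replicate 1 labelled skmNrip1-/- the correlation was 0.0298. These values cannot show whether same-numbered libraries share more than a number. With the replicate block, which drops WT control replicate 3 from the contrast, all genes had 18 higher and 4 lower calls, import genes 1 higher and 1 lower at an unadjusted p of 0.05 or less, and Pam16 (-0.16) and Tomm20 (0.048) changed sign. Without the intensity trend there were 22 and 3 calls and 3 higher import genes, and with the adjusted p limited to 0.01 there were 14 and 3 calls. The causes of these changes were not tested.

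Leaving out each library gave 6 to 51 higher and 2 to 15 lower calls over all genes, 1 to 6 higher and 0 to 3 lower import genes at an unadjusted p of 0.05 or less, and a median of 0.05 to 0.17. Where this left 1 library in a group, it was assumed to vary like the other group. The log2 fold change then ranged from -0.29 to 0.0071 for Immp1l, -0.19 to 0.47 for Pam16, -0.10 to 0.18 for Pmpca, -0.31 to 0.25 for Timm10b, -0.030 to 0.091 for Timm17a, -0.40 to 0.13 for Timm22, -0.022 to 0.17 for Timm23, -0.18 to 0.041 for Timm9, -0.15 to 0.078 for Tomm20, -0.024 to 0.10 for Tomm40l, -0.025 to 0.21 for Tomm5 and -0.10 to 0.21 for Tomm7, and kept its sign in the other import genes.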
